A study of Mus musculus with 24 samples.

Results

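The nuclear genes that encode subunits of the mitochondrial respiratory chain and of ATP synthase were followed through a mouse model of ischemic stroke. The rule takes gene symbols (Nduf, Sdh, Uqcr, Cyc1, Cox4 to Cox8 and Atp5 genes) among those listed in all 4 deposited tables. Beyond that listing no measured value enters it, but the symbols were proposed with earlier results of these data known. The rule gave 81 genes of 14014. Of these 81, the symbols place 38 in complex I, 4 in complex II, 9 in complex III, 13 in complex IV and 17 in complex V. RefSeq lists 79 of them as protein coding and 2, Cox7c-ps1 and Atp5pb-ps, as pseudogenes, whose reads cannot be told reliably from those of their near-identical parent genes. Another RefSeq gene overlaps 27 of the 81, so reads of both genes may mix where strand was not used.

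The samples were cortex of C57BL/6N mice, males of 3 to 4 months, given as strain C57BL/6N-Cdr1asem1Nikr for every animal and as WT or ciRS-7 KO by genotype. ciRS-7, or Cdr1as, is a circular RNA of neurons that binds the microRNA miR-7, and WT animals carry it. All animals underwent transient middle cerebral artery occlusion, in which a filament blocked the artery for 1 h, and 1 day of reperfusion followed, so no group is unoperated. Each cortex sample is marked CL or PI, marks that the labels do not spell out, and the labels name 1 CL and 1 PI sample for each of 6 WT and 6 KO animals. The 24 libraries thus form 4 groups, CL and PI cortex of WT and of KO, with 6 animals each.

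Oxidative phosphorylation passes electrons from NADH through complex I, or from succinate through complex II, to ubiquinone, then through complex III to cytochrome c and through complex IV to oxygen. Complexes I, III and IV pump protons, and complex V uses the gradient to make ATP. Neurons depend heavily on this route, and a few core subunits are encoded by mitochondrial DNA while the genes described here are transcribed in the nucleus. Their promoters are known for sites of the factors NRF1, GABP (NRF2), YY1, ERR alpha and SP1.

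Effective depth, read from the steps of low values, was 5.27 to 10.5 M reads (megareads) per library, and it was 5.27 to 7.11 M reads in PI KO against 6.13 to 9.89 M reads in PI WT. The deleted RNA checked the genotype labels: Cdr1as lay between 2610 and 2931 CPM (reads of a gene per M reads of the library) in PI WT and between 3434 and 3801 CPM in CL WT, and no deposited KO value exceeded 0.166 CPM. The 10 markers of cortical excitatory neurons were present in every group. In every gene and group the deposited values had been drawn in to the group's quartiles, so the lowest and highest values given below are those quartiles, and a statement that groups do not overlap refers to them.

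All 81 genes were detected, with medians of 2.16 to 459 CPM in CL WT. Ndufa4 is counted in complex I by its symbol, although it is now assigned to complex IV. Per kilobase of merged exon, the median level in CL WT was 36.0 CPM for complex I genes, 47.5 for complex II, 72.8 for complex III, 84.2 for complex IV and 61.6 for complex V. Cox8a, a small subunit of cytochrome c oxidase, was the highest at 281 CPM per kilobase, and Atp5b, the catalytic beta subunit of ATP synthase, reached 239.6. At the low end stood Cox6a2, the heart and muscle isoform of subunit VIa, at 3.18 CPM per kilobase, Atp5g1, one of 3 genes for the c subunit of the ATP synthase rotor, at 4.31, and Ndufv3, a small complex I subunit, at 5.48. Atp5g1 stood at 21.2 CPM, and its merged exons of 4912 bases are the longest of the 81. The members are short genes, with a median merged exon length of 983 bases against 3363 bases over all genes with a length.

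Promoter windows of 300 bases (250 before to 50 after the transcript start, RefSeq, GRCm38.p6) were available for 64 members. The letters GCGCATG, the core of the NRF1 site, stood on either strand in 13 of them (20.3%), against 7.97% of the listed genes with a window and 4.41% of all 27025 genes with one. The same shares were 26.6% of members and 19.5% of listed genes for GABPA (CCGGAAG), 17.2% and 8.40% for YY1 (AAGATGG), 12.5% and 3.71% for ERR alpha (AAGGTCA), and 42.2% and 69.2% for SP1 (GGGCGG). A match describes letters and is not evidence of binding. Because one end of the NRF1 core can overlap its own reverse complement, a palindromic site was counted as 1 gene. The NRF1 stretches of 4 members are shown because these genes recur in the values below, with the core in capitals, 5′ to 3′ on the strand of the gene.

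Ndufa11: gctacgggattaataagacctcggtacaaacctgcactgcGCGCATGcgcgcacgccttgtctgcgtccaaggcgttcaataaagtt
Cox5b: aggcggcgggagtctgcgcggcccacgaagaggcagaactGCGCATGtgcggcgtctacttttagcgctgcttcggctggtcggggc
Cox6a1: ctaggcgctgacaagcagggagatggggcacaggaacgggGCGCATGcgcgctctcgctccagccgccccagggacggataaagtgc
Sdhb: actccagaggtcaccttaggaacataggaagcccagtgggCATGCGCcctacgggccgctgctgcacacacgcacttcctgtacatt

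These lie at chr17:56717662-56717748 on the plus strand (Ndufa11), chr1:36691396-36691482 on the plus strand (Cox5b), chr5:115349074-115349160 on the minus strand (Cox6a1) and chr4:140961178-140961264 on the plus strand (Sdhb, which carries the reverse complement). Between the core and the transcript start lie 53, 44, 155 and 46 bases in that order. Cox8a and Ndufc2, which passed the test between PI and CL, and Ndufs7, which had the largest complex I change in WT and did not pass, have no NRF1 core. The 100 bases before the transcript start given by RefSeq for each hold none of the 5 motifs. No window is shown for Cox6c, which also passed.

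Cox8a: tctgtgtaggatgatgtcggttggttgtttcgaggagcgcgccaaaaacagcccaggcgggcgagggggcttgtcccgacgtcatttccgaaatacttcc
Ndufc2: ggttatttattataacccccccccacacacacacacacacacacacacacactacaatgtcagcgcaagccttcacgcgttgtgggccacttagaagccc
Ndufs7: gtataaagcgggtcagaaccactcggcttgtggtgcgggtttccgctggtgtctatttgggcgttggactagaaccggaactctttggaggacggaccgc

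Their positions are chr19:7217617-7217716 on the minus strand (Cox8a), chr7:97399903-97400002 on the plus strand (Ndufc2) and chr10:80249349-80249448 on the plus strand (Ndufs7). The Ndufs7 stretch lies inside the annotated gene, which begins at 80249105, so it precedes one of its transcripts and not the gene. Elsewhere in its window Cox8a holds the GABPA letters and Ndufs7 the YY1 letters.

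In WT animals, 2 of the 81 genes differed between PI and CL cortex, both lower in PI and both in complex IV, where 10.6% of all genes tested differed (adjusted p under 0.05 in the moderated trimmed-mean test, 2-sided). Both encode small nuclear subunits of cytochrome c oxidase, the enzyme that reduces oxygen to water. In bulk tissue, fewer cells of a type and less RNA per cell cannot be told apart.

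Cox8a values were 148, 155 and 155 CPM (lowest, median and highest) in CL WT and 125, 129 and 132 CPM in PI WT. The groups did not overlap. Its log2 fold change was -0.25 (SE 0.05, 0.842 of the CL level, adjusted p = 0.0105 by limma's moderation). Cox6c, another subunit of the membrane part of the enzyme, ran at 167, 177 and 189 CPM in CL WT and at 145, 152 and 155 CPM in PI WT. These ranges too were separate, with a log2 fold change of -0.24 (SE 0.07, adjusted p = 0.0425). With no trend in the prior variance the adjusted p of Cox6c was 0.125 and that of Cox8a 0.0482. Groups drawn in to their quartiles are often separate: 17 of the 81 members were so in WT, against 32.8% of all genes, and 17 in KO, against 34.3%.

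Of the 13 genes placed in complex IV by symbol, 11 were below 0 in WT. The median log2 change of the 13 was -0.11, while the median of all genes was 0.011. These 13 include the pseudogene Cox7c-ps1 and leave out Ndufa4. On the deposited values the median of the 13 genes was below 0 in 6 of 6 animals, from -0.13 to -0.078. Because the outer values of each gene are group quartiles, the animals are not 6 separate observations of this shift. Cox7b, a further small subunit, had -0.23 (SE 0.07), an adjusted p of 0.0502 and non-overlapping values of 141 to 145 CPM against 113 to 130 CPM. Cox5b, the zinc-binding subunit, had -0.16 with an adjusted p of 0.129. Cox4i1 and Cox5a, partners at the start of the enzyme's assembly, were the exceptions at 0.074 and 0.15, neither of which passed the test.

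The other complexes gave no call in WT. Complex I had a median of -0.045, complex III of -0.062 and complex V of -0.036, and complex II, which also serves the citric acid cycle, stood at 0.020. Among complex I genes, Ndufs7, a core subunit that carries the last iron-sulfur cluster before ubiquinone, had the largest size of change. It ran at 24, 26.3 and 26.7 CPM in CL WT and at 20.6, 21.5 and 22.3 CPM in PI WT. The groups did not overlap, but the log2 change of -0.26 (SE 0.08) had an adjusted p of 0.0770. Of the 7 core catalytic subunits of complex I, 6 had changes below 0. The largest changes elsewhere were Uqcr11, a small complex III subunit, at -0.25 (SE 0.12, adjusted p = 0.236), Sdha, the flavoprotein of succinate dehydrogenase, at -0.084 (SE 0.05, adjusted p = 0.363), and Atp5g1 at 0.17 (SE 0.10, adjusted p = 0.352).

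Across all 5 complexes 60 of 81 changes were below 0 in WT, with a median of -0.046, or -0.079 with each group centred on its median gene. An unadjusted p under 0.05 was reached by 6 lower and 1 higher member, against 12.1% lower and 11.9% higher of all genes. Both shares were below those of all genes, and 77 of the 81 had a 95% interval within 0.5 on the log2 scale on both sides of 0, a bound set after the values were seen. On the deposited values, whose spread is too small for it, limma called 24 members, and with the animal as a replicate block 29, against 44.6% and 45.6% of all genes.

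**Figure D1:**
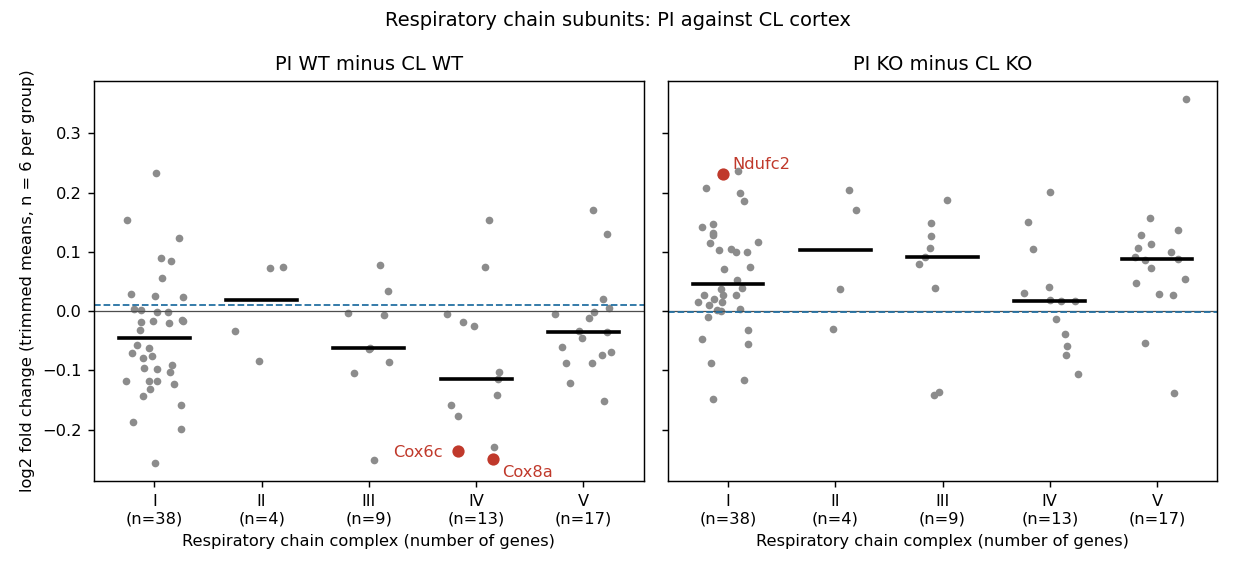
Log2 fold changes of the 81 genes between PI and CL cortex (vertical axis) by complex (horizontal axis), in WT at the left and KO at the right. Each grey point is a gene, red points passed the test, black bars are medians of a complex and the dashed line is the median of all genes. Complex IV in WT has a median of -0.11 and holds both calls, Cox8a and Cox6c, and in KO the call is Ndufc2 in complex I.

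In KO animals, 1 of the 81 genes was called, and it was a gene not called in WT. Ndufc2, an accessory subunit of the membrane arm of complex I, was higher in PI, where 10.0% of all genes tested differed. It ran at 68.3, 68.6 and 71.5 CPM in CL KO and at 79.8, 80.8 and 84.0 CPM in PI KO. The groups did not overlap, with a log2 fold change of 0.23 (SE 0.06, 1.17-fold, adjusted p = 0.0310).

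Ndufc2 had nearly the same values in the WT animals, which are other mice: 65.4, 70.8 and 74.7 CPM in CL WT and 76.2, 84.5 and 87.3 CPM in PI WT. The groups were again separate, and the log2 change was 0.23 (SE 0.09, adjusted p = 0.109). The difference between both changes was -0.003 (95% interval -0.22 to 0.22). The threshold was passed in KO and not in WT by the moderated trimmed-mean test. By limma on the deposited values it was passed in both, with adjusted p of 0.00135 in WT and 6.11e-06 in KO, and 0.00207 and 0.000127 with the replicate block. In WT the change of Ndufc2 had the opposite sign to the median of complex I. With each group centred on its median gene its adjusted p in KO was 0.0557, and with no trend in the prior variance 0.0756.

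In KO, 64 of 81 members had a change above 0, with a median of 0.054 against -0.0007 over all genes, or of 0.019 with each group centred on its median gene. All genes with merged exons of up to 1000 bases had a median of 0.096, and the 41 members of that length 0.048. For over 1000 and up to 2000 bases the medians were 0.056 over all genes and 0.091 for the 29 members. The part of length here was not tested. The per-animal median of all 81 was above 0 in 6 of 6 KO animals, from 0.041 to 0.10, while in WT it was below 0 in 5 of 6, from -0.10 to 0.0043. These counts too rest on values drawn in to group quartiles, so agreement between animals is partly built in. Unadjusted p under 0.05 was reached by 8 higher and 0 lower members, against 12.1% higher and 12.7% lower of all genes. These members included Ndufa12, an accessory complex I subunit, at 0.24 (SE 0.08, adjusted p = 0.0719), Sdhb, the iron-sulfur subunit of complex II, at 0.21 (SE 0.07, adjusted p = 0.0769), and Uqcr10, a small complex III subunit, at 0.19 (SE 0.08, adjusted p = 0.149). Sdhb ran at 66.3, 71.8 and 73.6 CPM in CL KO and at 80.5, 80.7 and 82.7 CPM in PI KO, without overlap. Complex medians were 0.10 for II, 0.092 for III, 0.087 for V, 0.046 for I and 0.018 for IV.

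The 2 genes called in WT did not pass in KO. Cox8a ran at 150, 156 and 163 CPM in CL KO and at 135, 146 and 156 CPM in PI KO, ranges that overlapped, with a log2 change of -0.11 (SE 0.08, adjusted p = 0.429). Its deposited value was lower in PI in 6 of 6 KO animals, and with the animal as a replicate block on the deposited values its adjusted p in limma was 0.00958. Cox6c stood at -0.059 (SE 0.07, adjusted p = 0.649), its deposited value lower in 4 of 6 animals. Both counts of animals and the block rest on values drawn in to group quartiles, so they are not separate support for a change. On the deposited values, limma called 33 members in KO and 37 with the replicate block, against 46.5% and 47.1% of all genes.

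**Figure D2:**
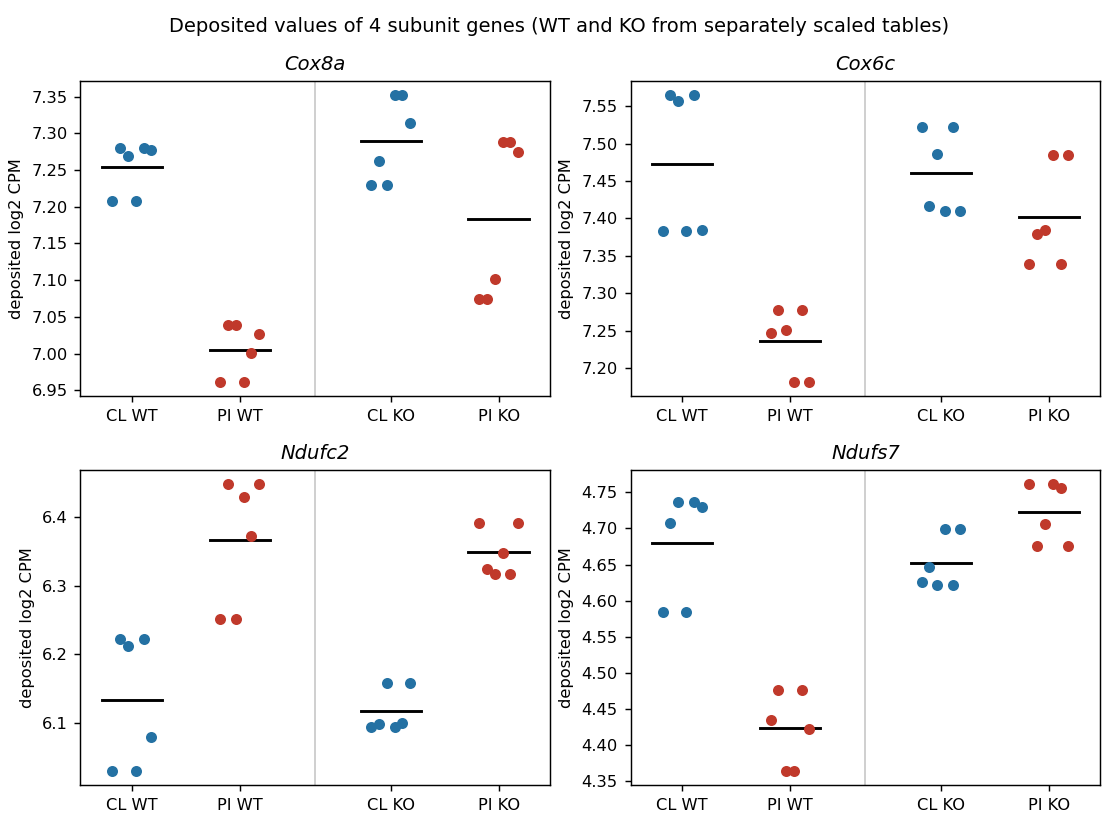
Deposited log2 CPM (vertical axis) of Cox8a, Cox6c, Ndufc2 and Ndufs7 in each library, with CL in blue, PI in red and bars at group means. Ties at the top and bottom of a group come from the values drawn in to the quartiles. Cox8a, Cox6c and Ndufs7 are separate between CL and PI in WT and Ndufc2 in both genotypes.

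Whether the side effect differed by genotype was tested directly, as the PI minus CL change in KO less that in WT. Of the 81 members 0 passed the test, and 0 of 14211 genes did (0.00%), with a smallest adjusted p of 0.992 among members. The differences were above 0 for 63 of 81 members, with a median of 0.12 against -0.0004 over all genes. All genes with merged exons of up to 1000 bases had a median of 0.065, and the 41 members of that length 0.11. Of 77 cytosolic ribosomal protein genes 76 were above 0, with a median of 0.14. Of 78 mitochondrial ribosomal protein genes 61 were above 0, with a median of 0.12. The part of length in these differences was not tested. An unadjusted p under 0.05 was reached by 5 members, all higher and all in complex I, against 4.55% of all genes in either direction: Ndufs7, Ndufb4, Ndufa13, Ndufa6 and Ndufb8. Ndufs7 had the largest of these at 0.33 (SE 0.11, 95% interval 0.10 to 0.56). For Cox8a the difference was 0.14 (95% interval -0.06 to 0.34) and for Cox6c 0.18 (-0.03 to 0.38), so neither was shown to differ by genotype. On deposited values limma called 23 members and 29 with the replicate block, all higher, against 13.7% and 15.6% of all genes in either direction.

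KO and WT were then compared within PI cortex. None of the 81 genes passed the moderated trimmed-mean test (0 called, against 0.0208% of all genes), and the smallest adjusted p was 0.768. At an unadjusted p under 0.05, 24 members were higher in KO and 0 lower, against 2.80% higher and 2.95% lower of all genes, and limma on the deposited values called 39, against 16.5% of all genes. The share higher at that unadjusted p was 11.9% of all genes with merged exons of up to 1000 bases, a class that holds 41 members. It was 4.22% of genes of over 1000 and up to 2000 bases, a class that holds 29. The deposited values of PI KO and PI WT did not overlap for 33 members, against 14.1% of all genes. The changes of 69 of 81 members were above 0, with a median of 0.13 against -0.0049 over all genes. The PI KO and PI WT libraries here are the same as those in the PI and CL comparisons, so these figures are not separate evidence.

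By complex, the medians in PI were 0.17 for IV, 0.14 for V, 0.13 for III, 0.11 for I and 0.055 for II. Ndufs7 ran at 21.0, 22.0 and 22.7 CPM in PI WT and at 26.2, 27.2 and 27.7 CPM in PI KO, without overlap, a log2 change of 0.30 (SE 0.08, adjusted p = 0.768). Atp5md, a small membrane subunit of ATP synthase that supports its dimers, ran at 74.7, 78.5 and 81.5 CPM in PI WT and at 90.9, 91.9 and 94.4 CPM in PI KO, also without overlap (0.24, SE 0.06, adjusted p = 0.768). Its gene overlaps Taf5. Neither difference passed the correction over all genes.

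The members with the smallest p in the other complexes were Cox7c-ps1 at 0.36 (SE 0.10), Uqcrq, a small complex III subunit, at 0.17 (SE 0.07), and Sdhd, a membrane anchor of complex II, at 0.21 (SE 0.08). Of complex IV subunits with their own gene, Cox6a1, the ubiquitous isoform of subunit VIa, ran at 117, 120.5 and 123 CPM in PI WT and at 134, 137 and 144 CPM in PI KO. Cox5b ran at 67.1, 69.7 and 70.6 CPM in PI WT and at 76.9, 79.8 and 82.4 CPM in PI KO. Both were separate between groups, with changes of 0.20 (SE 0.06) and 0.21 (SE 0.06). Ndufv3 went the other way at -0.26, the lowest of the 81, and did not pass.

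In CL cortex the same contrast centred on 0. There, 40 of 81 changes were above 0, the median was -0.0011, and 0 members passed (0.0279% of all genes did). An unadjusted p under 0.05 was reached by 2 members, both higher, against 3.16% higher and 2.56% lower of all genes, and limma on the deposited values called 4, against 16.1% of all genes. The groups did not overlap for 4 members, against 13.5% of all genes. Of the 2 members, one was Cox7c-ps1, at 28.02, 28.4 and 29.6 CPM in CL WT and 34.0, 35.6 and 36.0 CPM in CL KO (0.30, SE 0.07, adjusted p = 0.461). The other was Uqcrh, the hinge protein of complex III, at 91.0, 93.2 and 94.0 CPM in CL WT and 97.98, 107.5 and 111 CPM in CL KO (0.19, SE 0.07, adjusted p = 0.824). Cox7c-ps1 thus had separate KO and WT values in both CL and PI cortex, and its parent gene Cox7c stood at -0.0062 in CL and 0.15 in PI. Cox7c-ps1 lies at chr17:25901808-25902153 (GRCm38.p6) and overlaps Rab40c. All but 3 of the 81 members had a 95% interval within 0.5 of 0 on the log2 scale in CL, and 72 did in PI.

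**Figure D3:**
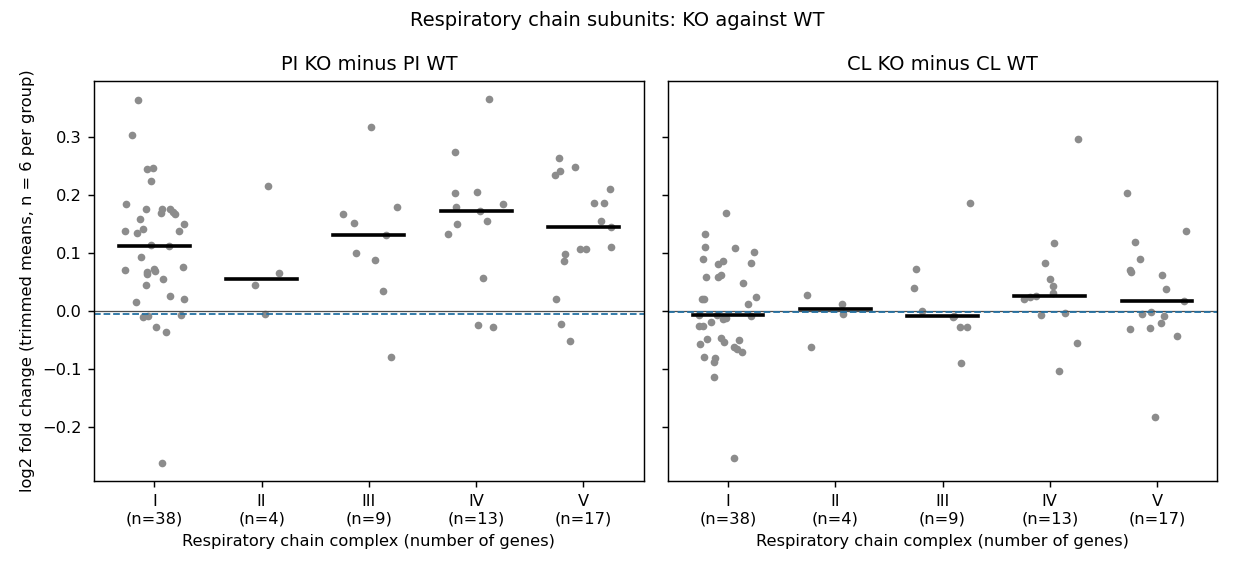
Log2 fold changes of the 81 genes between KO and WT (vertical axis) by complex (horizontal axis), in PI cortex at the left and CL cortex at the right. Points are genes, black bars are medians of a complex and the dashed line is the median of all genes. No gene passed the test, 69 of 81 changes lie above 0 in PI and 40 in CL.

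The libraries behind the PI shift were uneven. Taking each library's median deviation of the 81 genes from their means over the 12 libraries, PI WT ranged from -0.14 to 0.020 and PI KO from 0.030 to 0.11, and the highest PI WT library lay just under the lowest PI KO library. The deposited values used here are drawn in to each group's quartiles, so the separation of the groups is partly built in. In the CL table CL WT ran from -0.041 to 0.049 and CL KO from -0.041 to 0.047. Leaving out each library in turn, the median change in PI stayed between 0.12 and 0.15. The values kept were drawn in to quartiles that include the library left out, so this narrow range is partly built in.

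**Figure D4:**
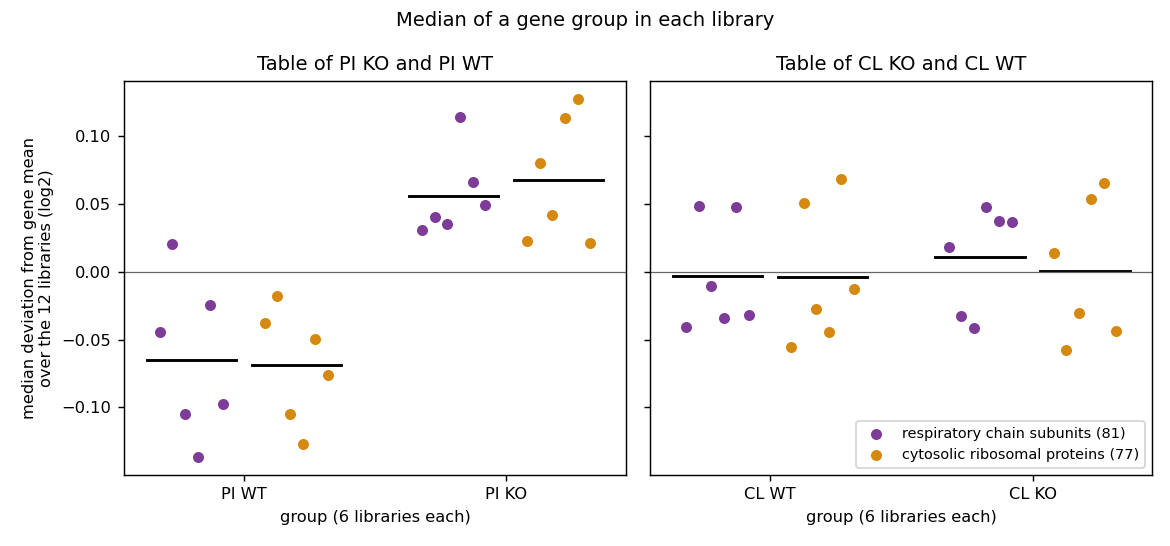
Median deviation (log2, vertical axis) of 81 respiratory chain genes (purple) and 77 cytosolic ribosomal protein genes (orange) from their means over 12 libraries, for each library by group. Bars are group means. PI WT members span -0.14 to 0.020 and PI KO members 0.030 to 0.11, and the ribosomal genes are placed similarly, while the CL groups overlap. The deposited values are drawn in to group quartiles, which narrows each group.

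Other gene groups had changes of the same sign between PI KO and PI WT. Of 77 cytosolic ribosomal protein genes, 76 had changes above 0 between PI KO and PI WT, with a median of 0.14. Of the 13 subunits encoded by mitochondrial DNA, 11 were above 0, with a median of 0.19. In these groups 32 and 4 genes were higher at an unadjusted p under 0.05. The shares were 2.80% of all genes and 11.9% of those with merged exons of up to 1000 bases. In CL cortex 39 of the 77 were above 0 (median 0.0030) and 10 of the 13 (median 0.066). Genes with a merged exon length up to 1000 bases, which include 41 of the members, had a median change of 0.093 in that comparison, and those over 4000 bases -0.019. The 41 short members stood at 0.17 and the 29 members of over 1000 and up to 2000 bases at 0.13, where all genes of that length had 0.021. Summed over the 6 microglial markers, PI KO ran from 185 to 224 CPM and PI WT from 169 to 191 CPM, and the 10 excitatory neuron markers from 5674 to 6332 and from 5923 to 6535 CPM. Of 6 markers of neutrophils and monocytes, Ly6g, Ccr2, Ms4a7 and Mpo were not listed, and the other two summed to 3.39 to 9.32 CPM in PI KO and 2.20 to 4.12 CPM in PI WT. The part of transcript length, depth and cell makeup in the members' shift was not tested.

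Marker sums also differed between PI and CL. Excitatory neuron markers summed to 5804 to 6423 CPM in PI WT against 7068 to 7629 CPM in CL WT, and to 5544 to 6173 CPM in PI KO against 7171 to 7443 CPM in CL KO. Of the 10, 4 were called lower in WT and 5 in KO, among them Camk2a at -0.44 and -0.59. Their list includes the general neuronal genes Rbfox3, Snap25, Syt1 and Nefl. The 6 inhibitory neuron markers summed to 569 to 669 CPM in PI WT against 550 to 612 CPM in CL WT, with 1 called lower. In KO they summed to 605 to 662 CPM in PI against 574 to 610 CPM in CL, with 1 called higher. In each genotype 3 of the 6 changes were above 0. Cytosolic ribosomal protein genes had medians of 0.10 in WT, with 11 of 77 called higher, and 0.24 in KO, with 38 called higher. Microglial markers summed to 166 to 187 CPM in PI WT against 158 to 170 CPM in CL WT, and to 181 to 218 CPM in PI KO against 168 to 180 CPM in CL KO. Single microglial markers went both ways: in WT 2 were called higher, Cx3cr1 at 0.71 and C1qa at 0.69, and 1 lower, P2ry12 at -0.82. In KO 3 were called higher, among them again Cx3cr1 (0.64) and C1qa (0.79), and 1 lower, again P2ry12 (-0.75). The 6 astrocyte markers summed to 6288 to 6690 CPM in PI WT against 7275 to 7672 CPM in CL WT, with 3 called lower and 1 higher, and to 6112 to 6795 CPM in PI KO against 7297 to 7798 CPM in CL KO, with 1 called each way. The 6 oligodendrocyte markers summed to 1429 to 2039 CPM in PI WT against 2080 to 2272 CPM in CL WT, with 1 called lower, and to 1590 to 1806 CPM in PI KO against 1663 to 2254 CPM in CL KO, with 0 called and 1 higher at an unadjusted p under 0.05. Of all genes tested, 10.6% were called in WT and 10.0% in KO. The part of these marker and ribosomal shifts in the members' changes was not tested.

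The rest of the mitochondrial program was also read from the same fits. The 13 subunits encoded by mitochondrial DNA had 10 changes below 0 in WT PI against CL (median -0.17) and 13 of 13 in KO (median -0.038). No call was made in either, with 3 and 1 at an unadjusted p under 0.05. Of all genes tested, 10.6% in WT and 10.0% in KO were called, and 23.9% and 24.9% had such an unadjusted p. Of 44 assembly factors, which help build the complexes but stay outside them, 1 was called higher in WT and 0 in KO, where 3 had an unadjusted p under 0.05. The called one was Sdhaf1, which helps insert iron-sulfur clusters into Sdhb, at 0.46 in WT (SE 0.12, adjusted p = 0.0306) and 0.14 in KO (SE 0.17). Of 78 mitochondrial ribosomal proteins, 1 was called higher in WT and 4 in KO.

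Among 16 genes of the citric acid cycle and pyruvate dehydrogenase 0 were called in either genotype, with medians of -0.065 in WT and 0.015 in KO. An unadjusted p under 0.05 was reached by 4 of them in WT and 1 in KO, against 23.9% and 24.9% of all genes. Of 16 other mitochondrial proteins 0 were called, with 1 and 5 at an unadjusted p under 0.05. Of 12 regulators of mitochondrial biogenesis 0 were called, with 1 in each genotype at an unadjusted p under 0.05. Ppargc1a, the coactivator that drives biogenesis, stood at -0.12 (SE 0.09) in WT and -0.15 (SE 0.08) in KO, and Nrf1 at 0.20 (SE 0.13) and 0.16 (SE 0.11). Gabpa stood at -0.022 and 0.036, Esrra, which encodes ERR alpha, at -0.028 and -0.17, and Tfam, the packaging factor of mitochondrial DNA, at 0.12 and 0.23. None of the 12 regulators, 16 cycle genes or 44 assembly factors was called between KO and WT in PI or CL cortex. An unadjusted p under 0.05 was reached by 0, 0 and 1 of them in PI and 1 of each in CL. The shares of all genes were 5.75% in PI and 5.73% in CL.

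**Figure D5:**
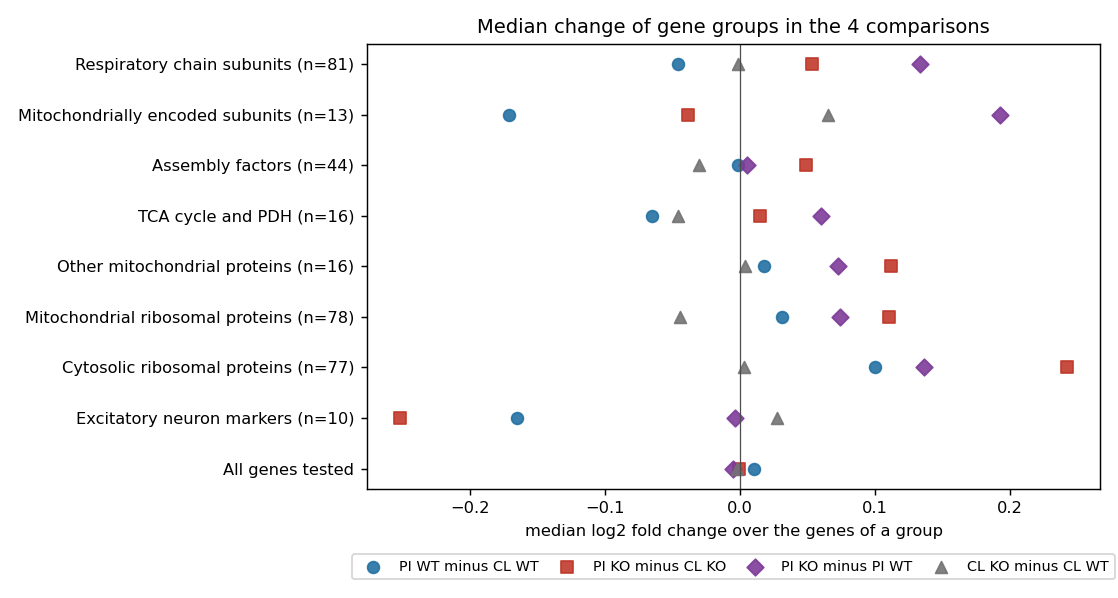
Median log2 fold change (horizontal axis) of gene groups (rows) in the 4 comparisons (marker shapes). The respiratory chain genes lie at -0.046, 0.054, 0.13 and -0.0011 in PI WT minus CL WT, PI KO minus CL KO, PI KO minus PI WT and CL KO minus CL WT, and the cytosolic ribosomal proteins at 0.10, 0.24, 0.14 and 0.0030.

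Genes for alternative isoforms of a subunit were compared for a switch. Of the 14 listed isoforms, 9 were in all tables, and Cox8a in WT was the call. Cox6a1 and Cox6a2 were at -0.10 (SE 0.05) and -0.18 (SE 0.26) in WT and 0.018 and 0.20 in KO, the wide error of Cox6a2 going with its level of 1.74 to 2.68 CPM in WT. The rotor genes Atp5g1, Atp5g2 and Atp5g3, which encode an identical mature protein, stood at 0.17, -0.036 and 0.13 in WT and at 0.10, 0.16 and -0.053 in KO, none past the test. Cox6b1 and Cox7a2 were at -0.019 and -0.14 in WT and at -0.074 and -0.013 in KO.

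The 13 members with an NRF1 core in their promoter window had a median of 0.19 between PI KO and PI WT, all 13 above 0, and the 51 with a window but no core had 0.11, with 41 above 0. In KO PI against CL, with the same PI KO libraries, these medians were 0.10 and 0.037, and in WT -0.057 and -0.033. Ndufa11, whose NRF1 core is shown above, ran at 18.2, 22.1 and 23.7 CPM in PI WT and at 26, 27.8 and 28.1 CPM in PI KO (0.36, SE 0.13, adjusted p = 0.854). These medians are a description of 13 genes chosen by their letters, and no difference between them was tested.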

How the data were processed

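Ribosome-depleted total RNA of 24 cortex samples was sequenced with the CORALL kit, per the labels' protocols. The authors deposited log2 CPM values per gene in 4 tables of 12 libraries, 1 for each pair of groups compared, each scaled separately, per the file headers. The build is mm10 per the submitters' processing notes, and the aligner, the counter and its use of strand are not given in the sources used here. In 100% of genes the 2 lowest and 2 highest values of each group of 6 were tied at the group's quartiles, a step no label records. The 4 inner values were solved from this. Every column matched 1 sample's title (0 unused columns).

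Each table was fitted over all its genes (14323 to 14489) with a moderated trimmed-mean test: the mean of the 4 recovered values, the Winsorized sum of squares with 3 degrees of freedom per group, and variances moderated by limma with a trend (limma 3.58.1, R 4.3.3), with Benjamini-Hochberg adjustment and a threshold of 0.05. The interaction joined both tables of PI and CL. Simulated data with known changes were used to check the test. Alternatives were limma on the deposited values, the animal as a replicate block, no trend, centring, a filter at 1 CPM, log2(CPM + 1), a narrower definition of members, group medians, and each library left out.

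Depth was estimated from low values as whole multiples of 1 read. Of the 30 to 157 low values checked per library in a table, 64.2% to 92.9% lay within 0.03 read of a whole multiple. Depth bounds the counting error of low genes such as Cox6a2. The numbers pair samples because the labels name the same animal. Deviations of same-animal samples correlated at -0.14 to 0.33 in WT, above 0.1 in 4 of 6 animals, and at -0.0093 to 0.17 in KO, above 0.1 in 2 of 6. Promoters came from RefSeq (GRCm38.p6), and all 81 symbols matched.

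The set of symbols and the gene lists were proposed with earlier results of these data known. Named genes are the members called, per complex the largest change or smallest p, subunit isoforms, 5 regulators, and members against their complex. Cox7b, Cox5b, Cox5a, Cox6a1, Cox7c, Ndufa11, Ndufv3 and the 5 interaction genes were in part named after their values were seen.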

Additional observations from a re-analysis of the deposited data

How the results depend on the processing

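The spread of the deposited values is too small for limma, and that choice moved the counts most. Against 2, 1, 0, 0 and 0 members called (PI against CL in WT, in KO, KO against WT in PI, in CL, and the interaction), limma on the deposited values called 24, 33, 39, 4 and 23, against 44.6%, 46.5%, 16.5%, 16.1% and 13.7% of all genes. With the animal as a replicate block it called 29 and 37 for PI against CL and 29 for the interaction, against 45.6%, 47.1% and 15.6%. With no trend in the prior variance 1 and 0 members were called for PI against CL in WT and KO, and with each group centred on its median gene 4 and 0. The filter at 1 CPM, log2(CPM + 1) and the narrower definition kept these counts within 1.5 times. The cause of these shifts was not tested, other than that a smaller spread gives smaller p-values by construction.

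Medians kept their sign in all alternatives run for PI against CL in both genotypes, for KO against WT in PI and for the interaction. In WT PI against CL, the median was -0.079 after centring, against -0.046. In KO PI against CL, the median was 0.019 after centring and 0.078 from group medians, against 0.054. With 1 animal left out it ranged from 0.059 to 0.079 there and from -0.049 to -0.031 in WT. With 1 library left out it ranged from 0.12 to 0.15 for KO against WT in PI and from -0.0045 to 0.018 in CL, where the sign changed, and with 1 animal left out from 0.11 to 0.13 for the interaction. The values kept in these runs were drawn in to quartiles that include the library or animal left out. The narrow ranges are therefore partly built in.

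Leaving out single libraries in the KO and WT comparisons, and counting members at an unadjusted p, were chosen after seeing the data.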
